A study of Mus musculus with 27 samples.

Results

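The arrays compared here held RNA of mouse embryos at embryonic day 13 (E13, 6 arrays) and at embryonic day 16 (E16, 5 arrays), 11 of the 27 arrays of a series on Tbr2, the protein of the gene Eomes. They were chosen by their titles, E13 embryo and E16 embryo, and all genes above background entered the comparison. The signal columns of both groups carry the letters WT, read here as wild type. No allele, agent or treatment is named for either, and stage is what separates them. The other arrays of the series held cortex of Tbr2 conditional knockout (cKO) embryos at E13 and E16 and sorted neurons of postnatal day 2. The age entry of the E16 samples repeats E13, so the stage rests on the titles. No strain, litter, pooling or tissue is named for the embryo samples, and the text on sorted neurons that stands beside them is the same for all 27 samples. The p-values therefore measure the spread between arrays whose origin from separate animals is not stated.

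In the embryonic mouse cortex radial glia, the stem cells that line the ventricle, divide to renew themselves and to make intermediate progenitors and neurons. Neurons are born in order: the Cajal-Retzius cells of the surface and the subplate come early, then the deep-layer projection neurons, then those of the upper layers. E13 lies in the time of deep-layer neuron birth and E16 in that of upper-layer birth, after which radial glia turn to making glia.

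Of the 45281 probes on each array, 37.9% to 40% were above background (detection p under 0.01), and 10663 genes were tested with limma on normalised log2 signals, which are the levels given below. Changes are E16 minus E13 on the log2 scale, with the standard error (SE) of the fit. A gene counts as passing where its p, adjusted by the Benjamini-Hochberg method over all genes, is under 0.05. Of these genes 1226 were higher at E16 (11.5%) and 1316 were lower (12.3%). The counts of list members below that rose or fell are to be read against these 2 shares. A change of at least 2-fold was reached by 213 of the higher genes (2% of those tested) and 317 of the lower (2.97%), so 2012 of the 2542 calls were smaller than 2-fold. In 1807 genes (16.9%) the E13 and E16 arrays did not overlap. The first principal component, 50.4% of the variance, placed the E13 arrays between -31.6 and -14.9 and the E16 arrays between 23.9 and 28.3. The median change of all genes was -0.0059, and the plot of change by level shows both directions at all levels above the dimmest.

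**Figure D1:**
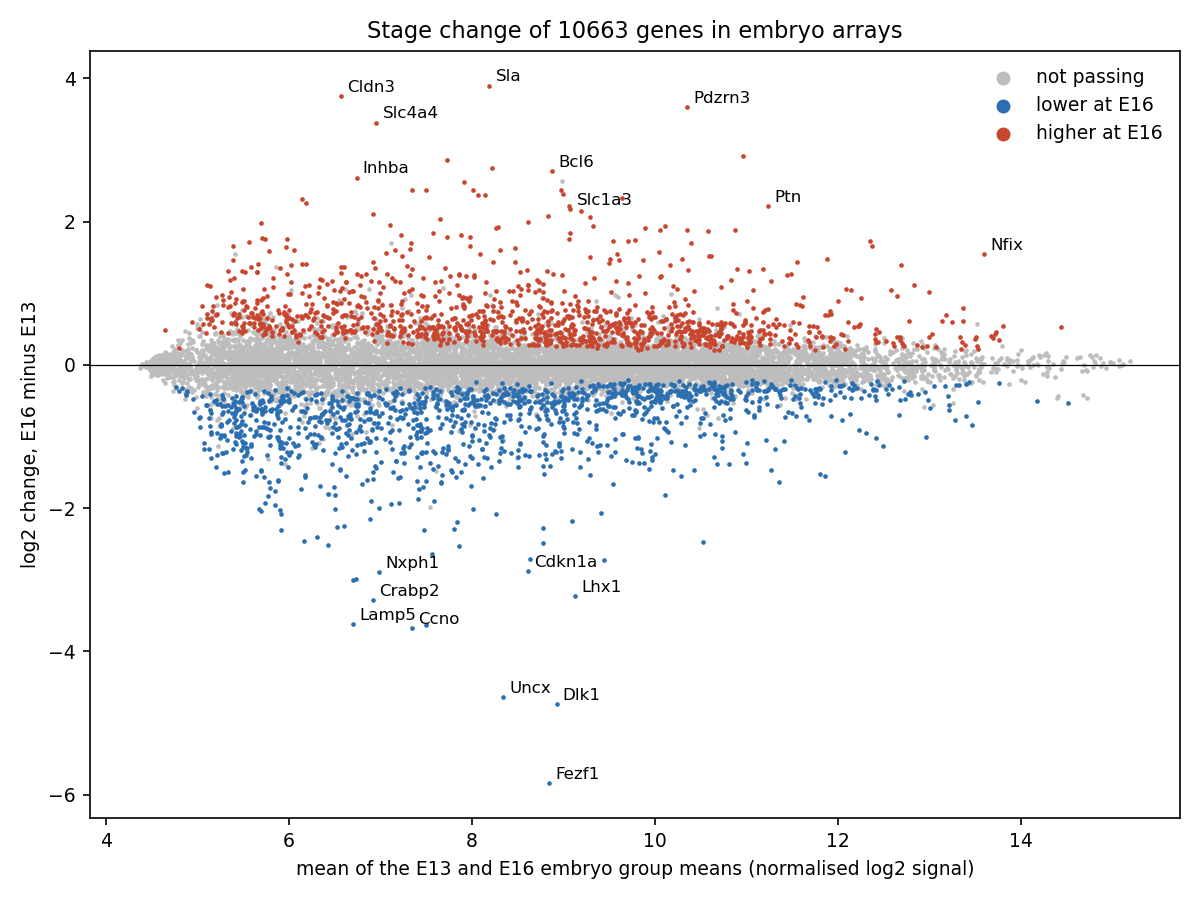
Log2 change from E13 to E16 (vertical axis) against the mean of the 2 group means in normalised log2 signal (horizontal axis), 1 point per gene. Red points are the 1226 genes higher at E16, blue points the 1316 lower, grey points did not pass. Sla at 3.90 and Fezf1 at -5.84 are the extremes.

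The arrays also differed in ways other than stage. Xist, the noncoding RNA of the inactive X chromosome, was above background on E13 arrays 1, 2 and 5 and on E16 arrays 1, 2, 3 and 5, and the Y-linked Eif2s3y and Kdm5d on the other 4 arrays, so that 3 of 6 E13 and 1 of 5 E16 arrays were of the Y-linked kind. With this class as a covariate 1206 genes were higher and 1299 lower. Probes above background on no array grouped the arrays too, a grouping made from the data: E13 arrays 1, 3, 4 and 6 and E16 arrays 1, 2 and 4 shared 1 background pattern. With the pattern as a covariate 1193 genes were higher and 1301 lower, and within these 7 arrays 764 and 932. All 2542 calls kept their direction in both, but both fits reuse arrays that made the calls. Within the 7 arrays 1525 of the calls passed. Of the genes named in the text, 24 (Actl6a, Acvr1, Acvr2a, Bcl11b, Btg1, Camk2a, Hba-a1, Hbb-bt, Igf2bp1, Kitl, Mcm3, Ndrg1, Nfib, Pgam1, Rbfox2, Rian, Slc12a2, Slc17a7, Smad6, Spock1, Tmem158, Tmem178, Tox and Unc5c) did not pass within the 7 arrays.

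Values below background are used as measured, so a fold is uncertain where only some arrays of a stage were above it. The number of such arrays is given beside many of these genes. It was 4 of 6 E13 arrays for Crym and Sema3c. It was 5 of 6 E13 arrays for Ly6g6e, Rasgrf1, Abcc8, Camk4, Hba-a1 and Hbb-bt, and 4 of 5 E16 arrays for Dcc and Grin3a. Where a gene had further probes, the brightest one is described. For genes that passed, further probes of opposite sign are named. Genes given as not passing could hold a further probe that changed at an unadjusted limma p under 0.05. Among them were Chrnb2 (0.56 ± 0.13 SE), Rfx3 (-0.72 ± 0.18 SE), Lmo4 (0.695 ± 0.212 SE), Fezf2 (-0.56 ± 0.18 SE), Sox5 (-0.76 ± 0.26 SE) and Mcm6 (2.80 ± 1.12 SE). Of 77 called genes in the text with further probes, 62 had every further probe changed in the same direction at an unadjusted limma p under 0.05. The further probes of Etv1, Id2, Meis2, Nfib and Slc12a2 had the same sign but did not all reach that. The size of a change also depended on the probe. A further probe changed by less in Rbfox1 (0.47 ± 0.15 SE), Rasgrf1 (0.74 ± 0.16 SE), Nos1 (1.08 ± 0.17 SE), Etv1 (-0.43 ± 0.24 SE) and Grb10 (-0.48 ± 0.15 SE). In other genes one changed by more, as in Igf2bp1 (-1.25 ± 0.16 SE).

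The cortical identity that the study's title names was read from markers. Radial glia genes were measured in 21 of 22 listed, which asks only for a signal above background on 5 of all 27 arrays. Pax6 is among them, though its probe was rarely above background on the embryo arrays. Eomes was above background in every array, and the layer genes Tbr1, Bcl11b, Cux2 and Mef2c were too. Of 21 listed genes of ventral progenitors and interneurons 10 were measured, of which 1 fell and 0 rose. Of 13 measured microglia genes 11, of 14 endothelial and pericyte genes 10 and of 6 meningeal genes 5 were above background in no array of either stage. None of the 20 Hox genes on the array, of 21 listed, passed the filter; they mark tissue behind the forebrain. Genes of the adjoining thalamus, hypothalamus and septum were present, as described below, and fell. In whole-tissue RNA, fewer cells of a type and less RNA per cell cannot be told apart.

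Genes of dividing cells fell as a block. Mitosis genes, which build the spindle and separate the chromosomes, were lower at E16 in 19 of 20 measured members, with 0 higher, a median change of -1.27 and no member above 0. Genes of DNA synthesis (S phase) were lower in 18 of 25, with 0 higher and a median of -0.58. The mean level over the mitosis list ran from 9.16 to 9.59 on the E13 arrays and from 7.84 to 8.23 on the E16 arrays, and that over the S phase list from 8.84 to 9.27 and from 8.28 to 8.52. Neither list overlapped between stages in its mean.

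Promoters of these genes are shown because many of them hold the short motifs known from cell cycle genes: CCAAT, bound by NF-Y, TTTGAA, the core of the cell cycle genes homology region, and TTCCCGC or TTGGCGC, forms of the E2F site. Each window is 250 bases before to 50 after a RefSeq start site (build GRCm38.p6), written 5′ to 3′ on the gene's strand, with every match to the 4 motifs on either strand in capitals. Cdk1, Cdc20, Ube2c and Top2a are mitosis genes, and Mcm3 and Mcm5 are S phase genes. Top2a, Mcm3 and Mcm5 were chosen after their values were seen.
Ube2c, chr2:164769679-164769978, plus strand: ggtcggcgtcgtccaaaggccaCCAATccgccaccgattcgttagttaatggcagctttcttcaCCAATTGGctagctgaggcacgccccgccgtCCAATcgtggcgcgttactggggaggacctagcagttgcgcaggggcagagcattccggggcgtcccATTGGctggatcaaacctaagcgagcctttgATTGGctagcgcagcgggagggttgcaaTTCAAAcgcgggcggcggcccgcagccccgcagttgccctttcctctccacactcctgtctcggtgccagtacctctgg
Cdc20, chr4:118437294-118437593, minus strand: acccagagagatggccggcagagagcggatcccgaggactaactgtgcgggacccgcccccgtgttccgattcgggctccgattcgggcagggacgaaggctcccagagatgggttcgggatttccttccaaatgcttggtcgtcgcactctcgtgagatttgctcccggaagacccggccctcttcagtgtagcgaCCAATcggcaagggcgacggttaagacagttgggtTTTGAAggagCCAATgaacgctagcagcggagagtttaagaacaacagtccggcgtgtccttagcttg
Cdk1, chr10:69352863-69353162, minus strand: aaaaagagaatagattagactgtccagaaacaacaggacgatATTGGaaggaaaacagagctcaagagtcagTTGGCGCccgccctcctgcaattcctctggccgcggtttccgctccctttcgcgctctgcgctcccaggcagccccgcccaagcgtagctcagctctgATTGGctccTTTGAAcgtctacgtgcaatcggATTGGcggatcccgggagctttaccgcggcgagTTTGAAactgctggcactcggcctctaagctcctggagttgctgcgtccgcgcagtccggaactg
Top2a, chr11:99024140-99024439, minus strand: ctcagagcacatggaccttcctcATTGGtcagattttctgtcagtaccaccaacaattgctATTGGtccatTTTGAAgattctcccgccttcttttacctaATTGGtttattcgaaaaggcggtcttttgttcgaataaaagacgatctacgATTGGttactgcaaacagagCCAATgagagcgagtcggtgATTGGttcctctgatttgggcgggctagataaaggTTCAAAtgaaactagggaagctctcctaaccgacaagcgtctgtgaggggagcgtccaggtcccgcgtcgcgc
Mcm3, chr1:20820263-20820562, minus strand: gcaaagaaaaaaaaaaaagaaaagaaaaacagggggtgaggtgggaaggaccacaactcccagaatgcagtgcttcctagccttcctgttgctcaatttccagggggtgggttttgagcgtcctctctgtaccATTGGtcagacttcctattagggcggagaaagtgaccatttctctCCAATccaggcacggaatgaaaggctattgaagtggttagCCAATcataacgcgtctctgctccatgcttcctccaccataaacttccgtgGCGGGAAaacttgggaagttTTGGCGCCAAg
Mcm5, chr8:75109259-75109558, plus strand: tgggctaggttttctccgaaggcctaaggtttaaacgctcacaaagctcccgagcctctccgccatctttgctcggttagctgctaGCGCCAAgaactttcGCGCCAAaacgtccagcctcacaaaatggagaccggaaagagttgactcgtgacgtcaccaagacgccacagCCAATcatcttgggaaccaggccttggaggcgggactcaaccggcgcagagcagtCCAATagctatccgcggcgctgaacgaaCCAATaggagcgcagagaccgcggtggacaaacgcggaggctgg
RefSeq windows were found for 15 of the 20 mitosis genes, 16 windows in all, and 14 of the 16 (87.5%) held both CCAAT and TTTGAA. Among the 11130 windows of all measured genes 4.76% held both. Birc5 and Nusap1 were the mitosis genes whose windows held neither motif. In the S phase list TTCCCGC or TTGGCGC stood in 13 of 26 windows (50%), against 11.8% of all windows and 1 of 16 mitosis windows (6.25%), the one of Cdk1. TTTGAA stood in 3 of the 26 S phase windows (11.5%), close to the 11.6% of all windows. In the windows of Ube2c, Cdc20, Cdk1 and Top2a the TTTGAA match nearest to the start site began at -29, -18, -15 and -23, counted from that site. TTGGCGC shares the letters TTGG with the reverse form of CCAAT, so matches of these 2 can overlap. These matches describe letters in the windows and do not show that a factor binds there.

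Ube2c (Entrez Gene 68612, chromosome 2), the ubiquitin-conjugating enzyme that starts the breakdown of mitotic cyclins, lay at 6.23–7.02 (median 6.79) on the E13 arrays and at 5.32, 5.16, 5.19, 4.97 and 5.74 on the E16 arrays, and fell 2.68-fold (log2 change -1.42 ± 0.20 SE, adjusted p = 6.47e-06). Only 1 of the 5 E16 arrays held its probe above background, and all 5 lay below every E13 array. Cdc20, the activator of the anaphase-promoting complex, lay at 10.38–10.82 (median 10.56) and at 9.23, 9.41, 9.34, 8.94 and 9.07, a fall of 2.58-fold (1.37 ± 0.27 SE, adjusted p = 0.000456). Cdk1, the kinase of mitotic entry, went from 10.05–10.68 (median 10.32) to 9.01, 8.90, 9.27, 8.76 and 9.16, 2.52-fold lower. Top2a, the topoisomerase that untangles chromosomes, went from 10.43–10.89 (median 10.54) to 9.32, 9.47, 9.74, 8.67 and 9.41. In each of these genes the 2 stages were fully apart, as they were in 16.9% of all genes. The genes were picked by or after their values, which favours such a separation. Plk1, a mitotic kinase, was the 1 member that did not pass: its probe read 9.05, 8.78, 10.03, 8.91, 8.84 and 5.55 on the E13 arrays and 4.69, 7.63, 4.83, 7.43 and 8.16 on the E16 arrays, so that values below 6 and above 7 occurred within each stage (change -1.98 ± 0.80 SE, adjusted p = 0.0725).

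In the S phase list the falls were smaller. Rrm2, a subunit of the enzyme that makes deoxynucleotides, fell 2.09-fold, from 8.61–9.24 (median 8.81) to 7.89, 7.69, 7.95, 7.89 and 7.57 (adjusted p = 0.000623). The other 2 Rrm2 probes changed by 0.19 ± 0.20 SE and -1.07 ± 0.21 SE. Mcm10, needed to start replication, fell 1.92-fold, and the helicase subunits Mcm5 and Mcm3 fell 1.59-fold and 1.56-fold. For Mcm3 the E13 range 6.87–7.76 (median 7.24) and the E16 values 6.19, 6.57, 6.55, 6.79 and 7.08 overlapped in 1 E16 array, and the gene did not pass without E13 array 1, 2 or 3 or E16 array 1, 2 or 3, with no filter on dim probes or with the Xist class as a covariate (changes of -0.64 to -0.53). The sliding clamp gene Pcna, at a change of -0.36 ± 0.21, and Mcm6 and Mcm7, at -0.30 and -0.24, did not pass. Further Mcm6 probes changed by 2.80 ± 1.12 SE and -0.23 ± 0.21 SE.

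Genes that stop the cell cycle did not rise in turn: of 9 measured inhibitors 5 fell and 1 rose. Cdkn1a, which encodes p21, fell 7.33-fold (log2 change -2.87 ± 0.24 SE, adjusted p = 1.85e-09), from 9.73–10.64 (median 9.98) to 7.90, 7.65, 6.99, 6.95 and 6.37. Cdkn1c, the imprinted inhibitor p57, fell 2.2-fold with very little spread, from 12.97–13.20 (median 13.06) to 12.05, 11.88, 11.88, 12.01 and 11.80. Cdkn1b, which encodes p27, did not pass (0.28 ± 0.18), and Btg1 was the 1 that rose, by 0.32 ± 0.11; it did not pass without E13 array 1, 3 or 6 or E16 array 1, 2, 3 or 5, with common median scaling or with the Xist class as a covariate (changes of 0.27 to 0.32). The G1 cyclin gene Ccnd1 fell 2.61-fold from 10.996–11.98 (median 11.24) to 10.22, 9.91, 10.22, 10.11 and 9.47, while its relative Ccnd2 did not pass (-0.09 ± 0.33).

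Radial glia genes passed about as often as all genes did. Of 21 measured, 3 rose (14.3%, against 11.5% of all genes), 2 fell (9.52%, against 12.3%) and 16 did not pass, and the mean level of the list overlapped between stages (7.55 to 7.92 at E13, 7.56 to 7.69 at E16). The risers were Slc1a3, the glutamate transporter GLAST, Ptprz1, a receptor phosphatase, and Tnc, a matrix glycoprotein. Slc1a3 rose 4.53-fold (log2 change 2.18 ± 0.44 SE, adjusted p = 0.000543), from 7.71–8.19 (median 8.01) to 10.25, 10.17, 9.97, 10.20 and 10.21. Ptprz1 rose 3.76-fold, from 8.37–9.17 (median 9.02) to 10.79, 10.92, 10.69, 10.77 and 11.06. Tnc was above background on 0 of 6 E13 arrays and on 5 of 5 E16 arrays, and rose at least 1.29-fold. Here and below, such a bound sets the dim group at the lowest signal that counts as above background. It compares group means only and leaves out the spread between arrays. The 95% interval of the fit can therefore reach a smaller change than the bound. The intermediate filament gene Vim went the other way, 2.93-fold lower, from 10.76–11.51 (median 11.02) to 9.86, 9.38, 9.30, 9.57 and 9.43. Sox2, Hes1, Hes5 and Nes did not pass, with changes of -0.23 ± 0.44, -0.12 ± 0.25, 0.12 ± 0.44 and -0.46 ± 0.21. The kept Pax6 probe was above background on 1 of the 11 arrays so that gene is not described.

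Genes of the later, gliogenic state rose in 5 of 19 measured members and fell in 0, with a median change of 0.43. Ptn, a secreted growth factor that binds Ptprz1, rose 4.67-fold (log2 change 2.22 ± 0.17 SE, adjusted p = 4.20e-10), from 9.78–10.47 (median 10.13) to 12.15, 12.25, 12.12, 12.50 and 12.72. The nuclear factor I gene Nfix rose 2.92-fold, from 12.41–13.34 (median 12.77) to 14.26, 14.40, 14.41, 14.44 and 14.34, and the zinc finger gene Zbtb20 2.88-fold, from 9.44–10.04 (median 9.93) to 11.34, 11.56, 11.49, 11.22 and 11.25. Nfib rose by 0.43 ± 0.12 SE but did not pass with the mean of all probes (change 0.37), and Nfia, at -0.31 ± 0.15, did not pass. Of the astrocyte genes Aldoc, Aqp4 and Gfap, with changes of -0.12, -0.05 and 0.42, none passed. Prdm16, a histone methyltransferase gene of radial glia, rose 3.26-fold, from 6.13–6.88 (median 6.53) to 8.13, 8.19, 7.95, 8.73 and 7.94.

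Genes that mark early progenitors in time fell in 6 of 10 measured members and rose in 1. Crabp2, a carrier of retinoic acid in the cell, was above background on all E13 arrays, at 7.84–9.75 (median 8.55), and on no E16 array, at 5.03, 5.61, 5.58, 5.01 and 5.13, and fell at least 7.35-fold (adjusted p = 4.76e-10). Lin28b, the RNA-binding protein that blocks let-7 microRNA maturation, lay at 6.13–6.83 (median 6.53) on the E13 arrays and above background on none of the E16 arrays, 4.67, 4.74, 5.42, 4.86 and 5.02, a fall of at least 1.78-fold. Igf2bp1, which binds messenger RNA, fell 1.75-fold and the ligand gene Wnt7a 2.97-fold. Fzd5, a Wnt receptor gene, was the riser (0.65 ± 0.21 SE), above background on no E13 array and 2 of 5 E16 arrays, with no bound above 1, and it did not pass without E13 array 1 or 3 or E16 array 4 or 5 (changes of 0.54 to 0.60). Crabp1, the paralogue of Crabp2, did not pass (-0.52 ± 0.35).

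The FGF pathway and its ETS targets rose in 6 of 14 measured members, and 1 fell. Both receptor genes Fgfr2 and Fgfr1 rose, 3.32-fold, from 8.65–9.12 (median 8.78) to 10.54, 10.73, 10.48, 10.28 and 10.82, and 2.24-fold, from 5.80–6.20 (median 6.09) to 6.83, 7.16, 7.35, 7.27 and 7.39, while Fgfr3 did not pass (-0.56 ± 0.23). Etv5, an ETS factor that responds to FGF, was above background on 0 of 6 E13 arrays and on all E16 arrays, 6.07, 6.39, 6.64, 7.52 and 6.78, at least 2.06-fold higher (adjusted p = 9.59e-08). The feedback inhibitors Dusp6, Spred1 and Spred2 rose too, by 1.02 ± 0.18, 0.68 ± 0.12 and 0.90 ± 0.19 SE, Spred2 with 1 of 6 E13 arrays above background. Etv1 fell 2.48-fold, and this ETS gene also marks deep-layer neurons.

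Among genes of intermediate progenitors 10 of 15 fell and 1 rose. Eomes (Entrez Gene 13813, chromosome 9) lay at 10.79–11.57 (median 11.17) and at 10.49, 10.60, 10.82, 9.95 and 10.38, 1.68-fold lower (log2 change -0.75 ± 0.19 SE, adjusted p = 0.00569), with 4 of 5 E16 arrays below every E13 array. Its upstream proneural factor Neurog2 fell 1.5-fold, and the Notch ligand genes Dll3 and Dll1 3.02-fold and 2.31-fold. Tmem158 was the riser (0.70 ± 0.25 SE) and did not pass without E13 array 1, 2, 3 or 5 or E16 array 1, 3, 4 or 5, with common median scaling, with no filter on dim probes or with array weights (changes of 0.51 to 0.75). Neurog2 did not pass without E13 array 3 or E16 array 2 or 4 (changes of -0.54 to -0.50). Insm1 did not pass (0.38 ± 0.17). Over the Notch pathway 7 of 16 fell and 0 rose, among them the target gene Hey1, 2.61-fold lower. The receptor gene Notch1 did not pass (-0.24 ± 0.30).

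**Figure D2:**
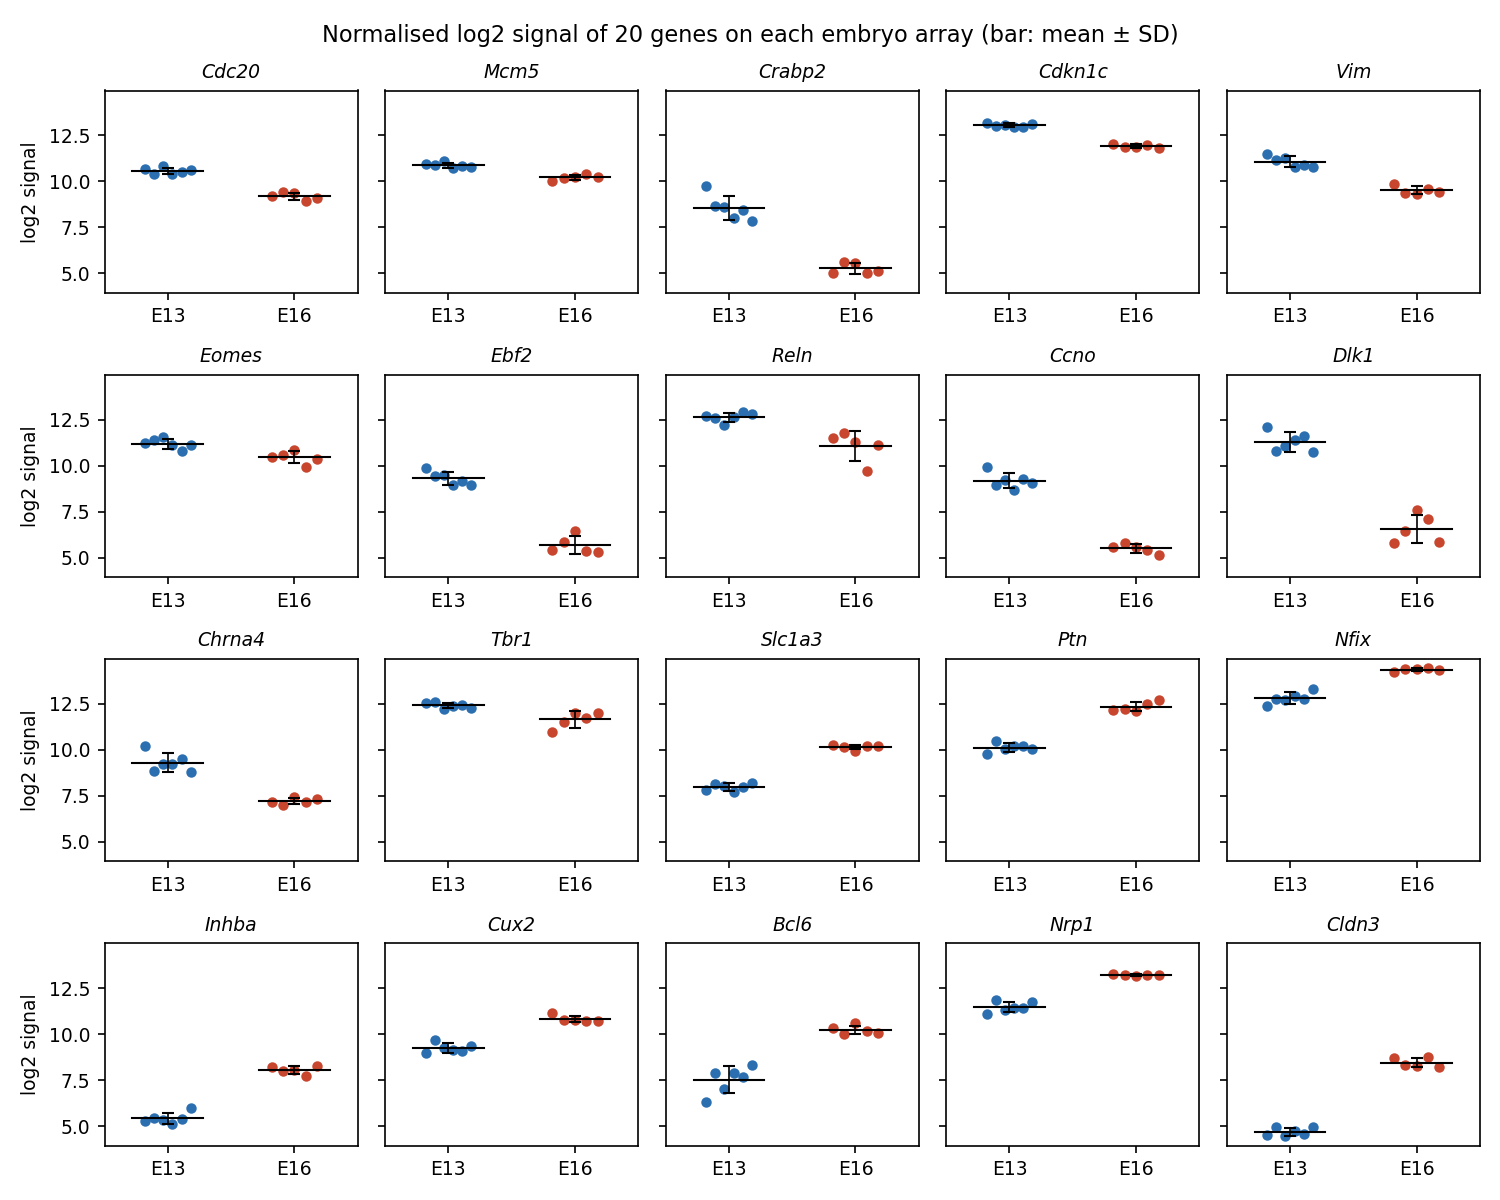
Normalised log2 signal (vertical axis) of 20 genes on each of the 6 E13 arrays (blue) and 5 E16 arrays (red), with the mean and SD of each group as a bar. Cdc20, Mcm5, Cdkn1c and Ccno fall and Slc1a3, Ptn, Inhba and Cldn3 rise with no overlap, while Eomes overlaps in 1 E16 array.

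Cajal-Retzius genes had the lowest median of the lists with at least 8 measured members, -1.55: 7 of 9 were lower and 1 was higher, with list means of 9.55 to 10.25 at E13 and 7.76 to 8.63 at E16. Ebf2, an early B-cell factor gene, lay at 8.92–9.85 (median 9.31) and at 5.43, 5.86, 6.43, 5.37 and 5.32, with 2 of 5 E16 arrays above background, and fell 12.3-fold (log2 change -3.63 ± 0.30 SE, adjusted p = 1.85e-09). The LIM homeobox genes Lhx1 and Lhx5 fell 9.36-fold and 7.96-fold, Lhx5 from 7.43–9.26 (median 8.07) to 4.62, 4.68, 6.48, 5.51 and 4.89, with 1 of 5 E16 arrays above background. Reln, the secreted guide of neuron migration, fell less, 2.94-fold, from 12.19–12.90 (median 12.66) to 11.52, 11.77, 11.29, 9.69 and 11.11, with E16 array 4 the lowest. Calb2, which encodes calretinin, fell 2.78-fold. Spock1 rose by 1.01 ± 0.26 SE.

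A multiciliation programme fell beside them. This list was drawn up after Ccno and Mcidas had been seen among the falls. Multiciliated cells use Mcidas and the cyclin-like Ccno to build many basal bodies, and the same genes are known from the choroid plexus and from Cajal-Retzius cells of the cortical hem. Of 10 measured members 6 fell, among them Ccno and Mcidas themselves, and 0 rose, with a median of -1.29. Ccno (Entrez Gene 218630, chromosome 13) lay at 8.70–9.91 (median 9.14) and at 5.59, 5.80, 5.59, 5.41 and 5.13, with 1 of 5 E16 arrays above background, 12.8-fold lower (log2 change -3.68 ± 0.23 SE, adjusted p = 2.93e-11). Its neighbour on chromosome 13, Mcidas, went from 6.47–7.58 (median 6.85) to 4.94, 5.01, 4.99, 4.85 and 4.66, with 0 of 5 E16 arrays above background, at least 2.35-fold lower. Dynlrb2, a dynein light chain gene, and Efcab1, a calcium-binding axonemal gene, were above background on every E13 array and no E16 array, and fell at least 2.05-fold and 2.21-fold. Rsph1, of the radial spoke, fell at least 1.29-fold, and the regulatory factor gene Rfx2 2.1-fold. Foxj1, the factor of motile cilia, did not pass (-0.25 ± 0.13), nor did Rfx3 or Tekt1 (-0.37 and -0.46). E13 array 1 was the highest for Ccno, Mcidas, Dynlrb2, Efcab1, Rsph1 and Rfx2.

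Genes of choroid plexus and cortical hem, and of the brain regions next to the cortex, moved the same way. Of 10 measured choroid plexus and hem genes 5 fell and 0 rose, with list means of 6.28 to 7.07 at E13 and 5.83 to 6.01 at E16. The homeobox gene Otx2 fell 2.81-fold, from 7.27–8.32 (median 7.58) to 6.02, 5.87, 6.71, 6.15 and 6.10, highest on E13 array 1. The hem genes Wnt8b and Lmx1a fell from above background on 4 and 3 of 6 E13 arrays to none of the E16 arrays, Wnt8b by at least 1.2-fold, and Lmx1a with -0.68 ± 0.14 SE and no bound above 1. Ttr, the transthyretin gene that defines choroid plexus, read 7.37, 4.70, 4.85, 5.03, 5.60 and 5.52 on the E13 arrays and was above background on 2 of them, on no E16 array, and did not pass (adjusted p = 0.581). Of 11 measured thalamus, hypothalamus and septum genes 6 fell and 0 rose, and the list mean ran from 7.82 to 8.93 at E13 and from 6.08 to 7.002 at E16. The part of neighbouring tissue in the falls of this and the next paragraphs was not tested.

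Within that list the E16 arrays differed among themselves. Fezf1, a forebrain zinc finger gene, read 4.74, 4.78, 8.04, 7.36 and 4.69 on the E16 arrays against 11.04–12.54 (median 11.84) at E13. Uncx, a homeobox gene, read 5.01, 4.82, 7.70, 6.94 and 5.65 against 9.84–11.69 (median 10.66). Both were highest on E16 arrays 3 and 4, as was Dlk1, at 5.79, 6.47, 7.56, 7.09 and 5.87. Nxph1, a neurexin ligand gene, followed with 4.68, 4.99, 6.81, 5.98 and 5.23 against 7.59–9.52 (median 8.32). Lhx9 and Gbx2 did not show it: Lhx9 was lowest on E16 array 4 (6.78, 6.76, 6.66, 5.97 and 6.77), and Gbx2 was above background on no E16 array (at least 3.28-fold lower, adjusted p = 0.00355). Fezf2, the cortical relative of Fezf1 and the factor of subcortical projection neurons, did not pass (-0.34 ± 0.16), whereas Fezf1 fell 57.2-fold on values of which 2 of 5 at E16 were above background.

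Some of the steepest falls ended below the background limit. The progenitor homeobox gene Dbx1 went from 7.54–9.31 (median 7.94) to 5.25, 5.05, 5.15, 5.24 and 5.26, at least 5.71-fold lower (adjusted p = 2.08e-10), and Lamp5, a lysosomal membrane protein gene of neurons, from 7.75–9.55 (median 8.43) to 4.96, 4.72, 4.75, 5.21 and 4.82, at least 7.09-fold lower (adjusted p = 5.81e-09). In all, 160 of the 1316 lower genes were above background on no E16 array, and 93 of the 1226 higher genes on no E13 array. Chst8, a sulfotransferase gene, fell 6.59-fold, Rasgrp1, a Ras exchange factor gene, 6.52-fold, and Sv2b, a synaptic vesicle protein gene, 6.21-fold (other probe -0.46 ± 0.30 SE). Tcf7l1, a repressor of Wnt targets, fell 4.91-fold from 8.53–9.48 (median 8.87) to 6.97, 6.73, 6.77, 6.55 and 6.24. Over the Wnt pathway 4 of 25 rose and 8 fell (16% and 32%, against 11.5% and 12.3% of all genes).

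Members of 4 gene families were counted after single genes of them had been seen among the falls or rises. Of the TALE homeobox genes 5 of 10 fell and 1 rose: Meis1 fell 3.17-fold, from 9.64–10.91 (median 10.52) to 8.73, 8.68, 8.72, 8.68 and 8.70, and Pbx3 3.14-fold, while Meis2 rose 1.63-fold, from 12.77–12.96 (median 12.79) to 13.43, 13.48, 13.61, 13.57 and 13.53. Of 6 nicotinic acetylcholine receptor genes 3 fell: Chrna3, 4.81-fold with 1 of 5 E16 arrays above background, Chrna4, 4.22-fold, from 8.78–10.20 (median 9.23) to 7.18, 6.9967, 7.42, 7.16 and 7.35, and Chrnb4, above background on 2 of 6 E13 and no E16 arrays, which did not pass without E13 array 1 or 3 or E16 array 1 or 3 or with common median scaling (changes of -0.43 to -0.39), while Chrnb2 did not pass (0.13 ± 0.11). Of 4 neurexophilin genes, which encode neurexin ligands, Nxph1 and Nxph4 fell 7.4-fold, with 2 of 5 E16 arrays above background, and 4.18-fold. Nxph2 and Nxph3 were above background on no embryo array of either stage. The latent TGF-beta binding proteins, which hold the growth factor in the matrix, rose in 2 of 3: Ltbp3 3.57-fold, from 7.43–8.94 (median 8.10) to 10.10, 10.11, 9.96, 10.09 and 9.68, and Ltbp1 at least 1.93-fold, with Ltbp4 at -0.08 ± 0.14.

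Imprinted genes, expressed from 1 parental allele, fell in 9 of 16 measured members and rose in none. The steepest was Dlk1 (Entrez Gene 13386, chromosome 12), 26.6-fold lower. Its neighbours in the imprinted cluster on chromosome 12, the noncoding RNA genes Meg3 and Rian, fell 3.16-fold and 3.26-fold. This cluster was set apart as a list after Dlk1 and Meg3 had been seen. Of its 6 measured genes 3 fell, and these include Dlk1 and Meg3 themselves. Meg3 went from 7.02–7.99 (median 7.73) to 5.89, 6.38, 6.51, 5.53 and 5.52. Rian, however, split the E16 arrays: arrays 1 and 2 lay within the E13 range 7.87–8.58 (median 8.42) and arrays 3, 4 and 5 below it (8.15, 7.91, 6.26, 5.16 and 5.58; adjusted p = 0.0197), and it did not pass without E16 array 4 or 5 (changes of -1.45 to -1.34). Rtl1 and Dio3 of the same cluster did not pass (-0.17 and -0.38). Grb10, an adaptor of insulin signalling, Nnat, a membrane protein gene, and Ndn fell 2.27-fold, 2.01-fold and 1.79-fold, while Igf2, at -0.23 ± 0.44, and Peg3, at -0.28 ± 0.19, did not pass.

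**Figure D3:**
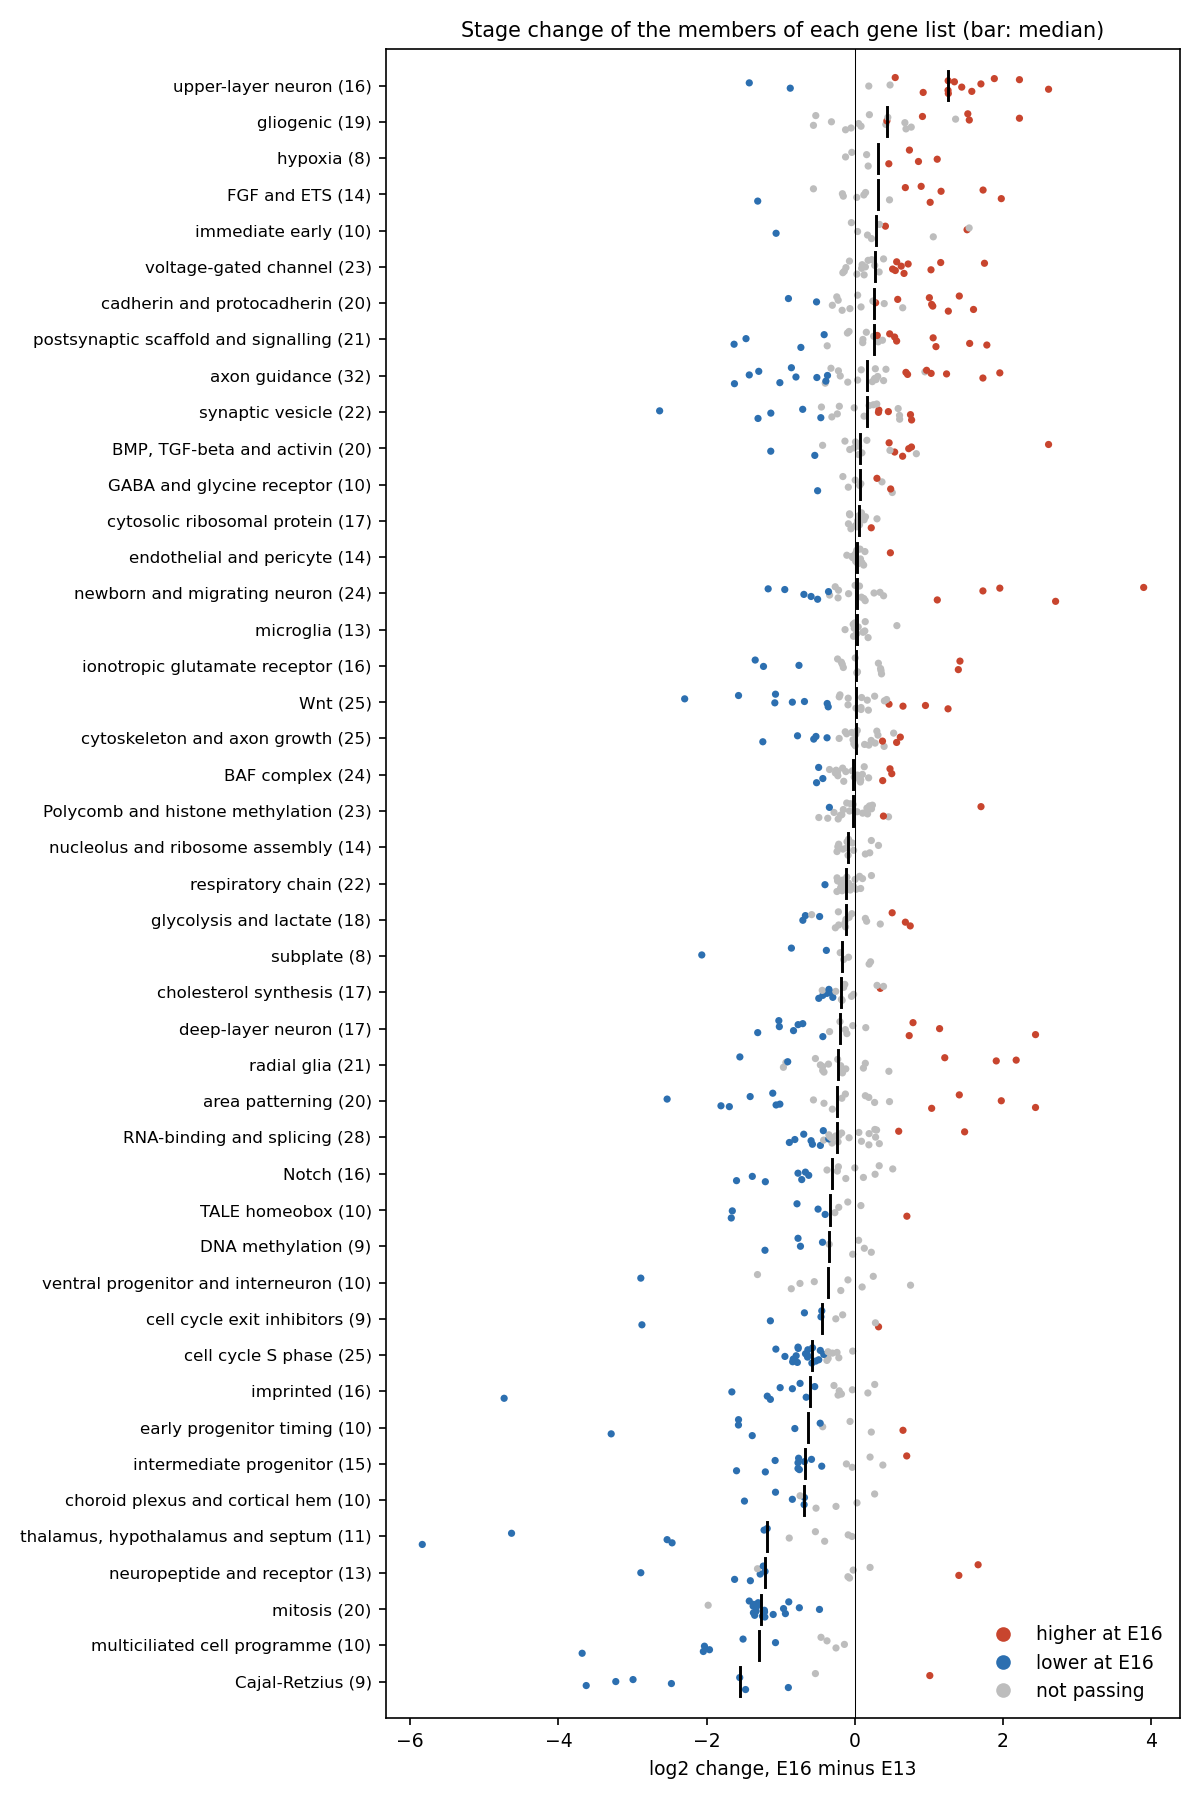
Log2 change from E13 to E16 (horizontal axis) of each measured member of the gene lists with at least 8 measured genes (rows, number measured in brackets), ordered by the median (black bar). Red points rose, blue points fell, grey points did not pass; the Cajal-Retzius list lies lowest with a median of -1.55 and the upper-layer list highest with 1.26.

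Upper-layer neuron genes rose in 12 of 16 measured members, and 2 fell, with a median of 1.26 and no overlap of the list means (8.43 to 8.68 at E13, 9.53 to 9.62 at E16). Inhba, the activin subunit gene, was above background on 1 of 6 E13 arrays, within 5.12–6.0017 (median 5.37), and read 8.22, 7.99, 8.07, 7.70 and 8.25 at E16, 6.13-fold higher (log2 change 2.62 ± 0.19 SE, adjusted p = 2.08e-10). The homeobox gene Cux2 rose 2.99-fold, from 8.98–9.70 (median 9.18) to 11.15, 10.78, 10.78, 10.73 and 10.70. Mef2c, a factor of activity-dependent transcription, rose 3.26-fold, from 9.31–9.85 (median 9.50) to 11.29, 11.55, 11.32, 10.99 and 11.08 (other probes 0.96 ± 0.39 SE, 0.58 ± 0.59 SE and 1.61 ± 0.21 SE), and the POU gene Pou3f1 2.54-fold, from 10.08–10.38 (median 10.24) to 11.80, 11.50, 11.41, 11.79 and 11.32. Plxnd1, a semaphorin receptor gene, fell 2.68-fold and Kitl, a ligand gene, fell 1.83-fold, with 1 of 5 E16 arrays above background, though Kitl did not pass without E13 array 5 or E16 array 3, 4 or 5 (changes of -0.80 to -0.73). Lmo4 and Mdga1 did not pass (0.19 and 0.48).

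Deep-layer neuron genes went both ways. Of 17 measured, 4 rose and 7 fell (23.5% and 41.2%, against 11.5% and 12.3% of all genes). The list means overlapped (9.58 to 9.87 at E13, 9.46 to 9.75 at E16). Etv1, Zfpm2, Rprm, Foxp2, Tbr1, Tle4 and Bcl11b fell, Tbr1 1.7-fold, from 12.24–12.59 (median 12.42) to 10.95, 11.54, 12.01, 11.75 and 12.03 (adjusted p = 0.0307), and Bcl11b by 0.43 ± 0.14 SE. Tbr1 did not pass without E13 array 1 or 2 or E16 array 1 or 2, with no filter on dim probes or with the background pattern as a covariate (changes of -0.77 to -0.59). Bcl11b did not pass without E13 array 4, 5 or 6 or E16 array 1 or 4 (changes of -0.39 to -0.38). Crym, a thyroid hormone binding protein gene, rose 5.43-fold, from 4.95–6.81 (median 6.32) to 7.89, 8.99, 8.17, 8.27 and 9.48 (adjusted p = 2.34e-06), with Ldb2 and Tox at 1.15 and 0.79. The fourth riser, Crim1, above background on 3 of 6 E13 arrays, did not pass without E13 array 1, 2, 3, 4 or 5 or E16 array 1, 2, 3 or 5, with common median scaling, without the P2 arrays, with no filter on dim probes, with the background pattern as a covariate or with the Xist class as a covariate (changes of 0.67 to 0.77). Sox5, Wnt7b and Igfbp4 did not pass (-0.03, -0.20 and -0.13). Of 8 measured subplate genes 3 fell and 0 rose: Nxph4 4.18-fold, from 10.20–10.77 (median 10.34) to 8.59, 8.11, 8.40, 8.54 and 8.22, the netrin receptor gene Unc5c, which did not pass without E13 array 1, 4 or 5 or E16 array 1 or 2, with the embryo table normalised alone, with only embryo arrays in the fit or with no filter on dim probes (changes of -0.87 to -0.67), and Tmem178 (-0.38 ± 0.09).

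**Figure D4:**
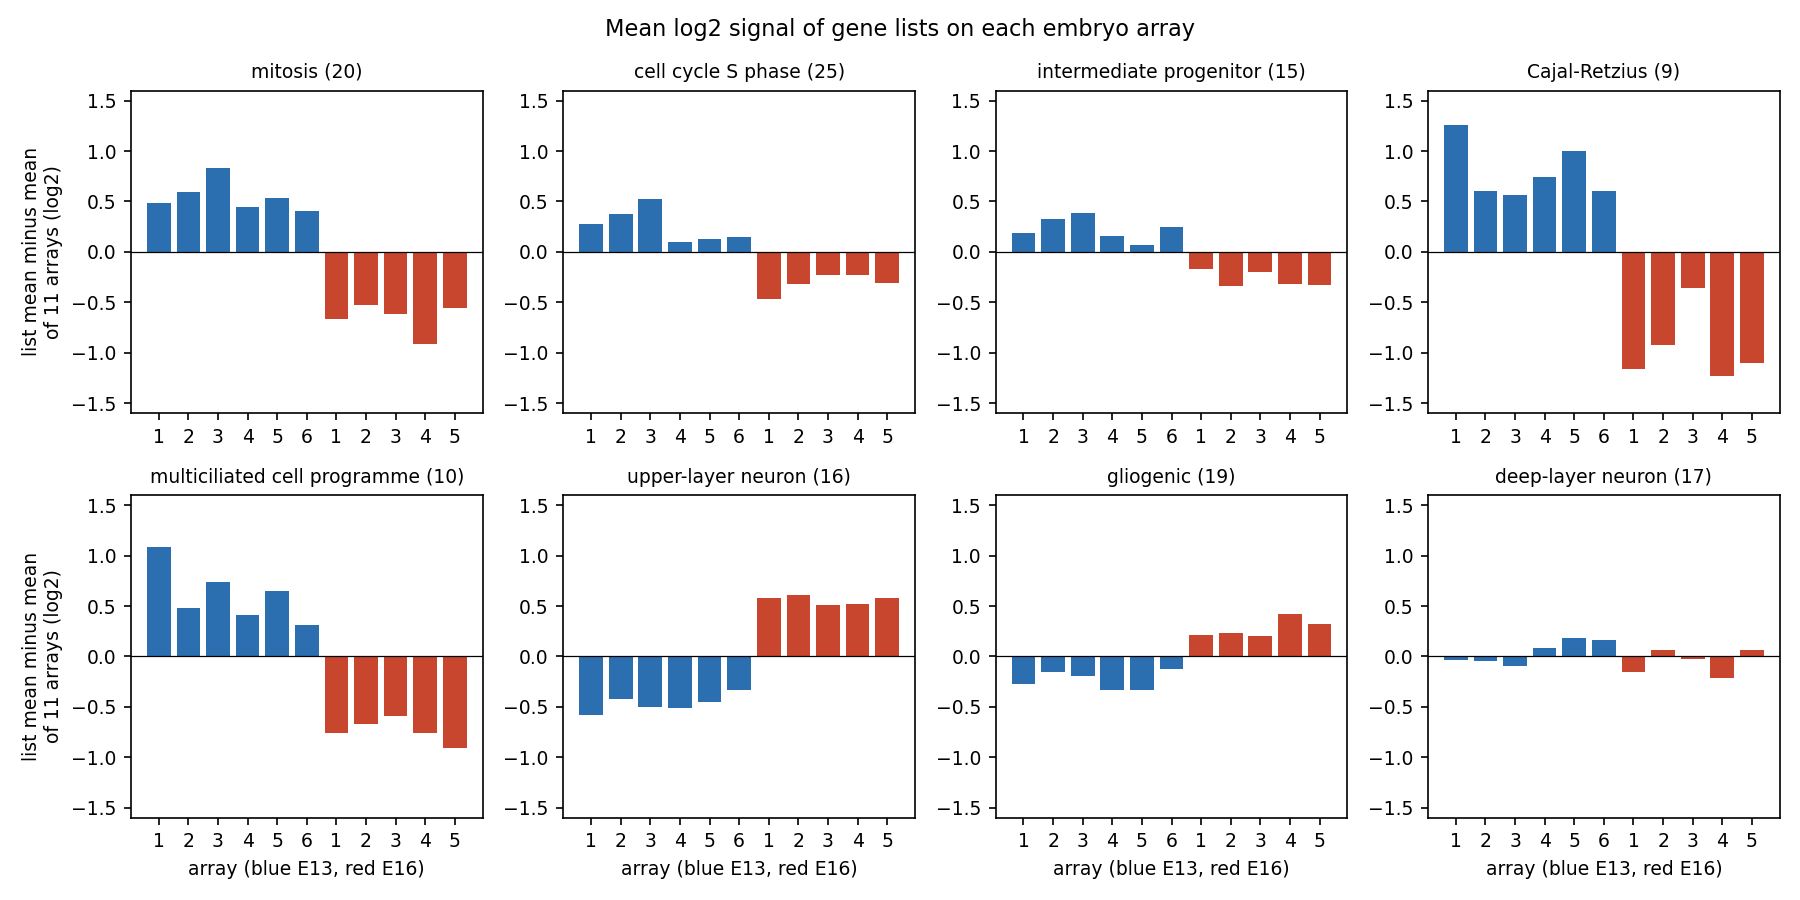
Mean log2 signal over the measured members of 8 gene lists on each array (bars, blue E13 and red E16), as the difference from the mean of the 11 arrays. The mitosis, S phase, intermediate progenitor, Cajal-Retzius and multiciliated lists are above 0 on the E13 arrays and below 0 on the E16 arrays, the upper-layer and gliogenic lists the other way round, and the deep-layer list overlaps.

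The largest rise of all was in a gene of migrating neurons. Sla, the gene of a Src-like adaptor protein, was above background on 4 of 6 E13 arrays, read 4.76, 6.14, 5.06, 6.87, 7.07 and 7.52 there and 9.36, 10.60, 10.03, 10.06 and 10.64 at E16, and its 2 further probes rose by 1.25 ± 0.20 SE and 1.11 ± 0.21 SE against 3.90 ± 0.38 for the probe used. Bcl6, a repressor that helps neurons leave the progenitor state, rose 6.55-fold, from 6.30–8.33 (median 7.79) to 10.36, 10.004, 10.58, 10.16 and 10.04 (adjusted p = 1.02e-07). Pdzrn3, a ubiquitin ligase gene, rose 12.2-fold, from 7.56–9.33 (median 8.78) to 12.13, 12.25, 11.99, 12.27 and 12.13. Nrp1, a receptor for class 3 semaphorins, rose 3.32-fold, from 11.11–11.83 (median 11.44) to 13.29, 13.21, 13.16, 13.20 and 13.19, and the semaphorin gene Sema3c 3.89-fold, less evenly, with 4 of 5 E16 arrays above every E13 array (8.19, 8.38, 8.73, 6.93 and 8.19). Rnd2 and Rnd3, small GTPase genes of migration, fell 1.92-fold and 2.25-fold. Dcx, Tubb3 and Stmn2, general genes of young neurons, did not pass (0.12 ± 0.11, 0.00 ± 0.17 and -0.26 ± 0.11).

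Several of the largest rises are outside the neuronal lists. Cldn3 (Entrez Gene 12739, chromosome 5), a tight junction gene, was above background on no E13 array and read 8.68, 8.33, 8.27, 8.75 and 8.21 at E16, at least 7.01-fold higher (adjusted p = 1.27e-11). Slc4a4, a sodium bicarbonate transporter gene, likewise went from no E13 array to 9.19, 9.17, 8.42, 8.29 and 8.16, at least 8.05-fold. Sh3rf3, a scaffold gene of stress kinases, rose 6.7-fold, from 6.24–7.11 (median 6.93) to 9.40, 9.59, 9.23, 9.97 and 9.76, Frmd6, of the Hippo pathway, 5.88-fold, from 5.96–7.14 (median 6.58) to 9.11, 9.15, 9.11, 9.31 and 9.26, and Ly6g6e 7.29-fold. Abcc8, a subunit of ATP-sensitive potassium channels, rose 5.41-fold, Nos1, the neuronal nitric oxide synthase gene, 5.19-fold, and Rasgrf1, a Ras exchange factor gene, 5.45-fold, from 5.56–6.93 (median 6.16) to 8.65, 8.79, 8.85, 8.50 and 8.83. In each of these 8 genes every E16 array lay above every E13 array. They were picked for the size of their rise, which favours such a separation, and 16.9% of all genes had no overlap between the stages.

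Of 5 measured genes of the erythroid list 1 rose and 0 fell, with a median of -0.06. The riser was Hba-a1, and Hbb-bt, which is not on the list, rose too. Hba-a1 and Hbb-bt, adult globin genes with near-identical copies that the probes may not tell apart, read 9.57, 10.88, 9.31, 11.05 and 10.15 and 9.53, 10.86, 9.23, 10.96 and 10.36 on the E16 arrays. On the E13 arrays they read 7.55, 7.07, 5.21, 9.63, 8.36 and 8.67 and 7.72, 7.23, 5.37, 9.75, 8.27 and 8.46, lowest on array 3. Both ordered the arrays of each stage alike. Hba-a1 passed narrowly (2.44 ± 0.87 SE, adjusted p = 0.0418) with 3 of 5 E16 arrays above every E13 array, and it did not pass without E13 array 1, 2 or 3 or E16 array 1, 2, 4 or 5, without the P2 arrays, with no filter on dim probes, with an intensity trend or with the Xist class as a covariate (changes of 1.94 to 2.60). Hbb-bt did not pass without E13 array 2 or 3 or E16 array 2, 4 or 5 or with no filter on dim probes (changes of 1.90 to 2.39). Hbb-b2 (0.46 ± 0.46), the embryonic globin gene Hbb-y (-0.34 ± 0.92), Car2 (-0.06 ± 0.22) and Klf1 (-0.10 ± 0.15) did not pass.

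Genes of the electrically active neuron rose in part. Of 23 measured voltage-gated channel genes 9 rose and 0 fell, and the list means did not overlap (7.28 to 7.46 at E13, 7.51 to 7.94 at E16). Kcnq5, an M-current potassium channel gene, was above background on 0 of 6 E13 arrays and 4 of 5 E16 arrays (7.59, 7.51, 7.02, 5.87 and 5.09), at least 1.97-fold higher. Scn1a, a sodium channel gene, rose 2.23-fold (adjusted p = 0.0194) but reached 9.48, 8.82, 8.36, 7.07 and 7.16, so that arrays 4 and 5 stayed within the E13 range 6.54–7.56 (median 6.99); it did not pass without E16 array 1 or 2 (changes of 0.83 to 1.00). Among 16 glutamate receptor genes 2 rose and 3 fell (12.5% and 18.8%, against 11.5% and 12.3% of all genes). Grin2b, an NMDA receptor subunit, and Gria2, the AMPA receptor subunit that limits calcium entry, rose 2.68-fold and 2.64-fold, Gria2 from 11.14–12.31 (median 12.11) to 13.42, 13.40, 13.68, 13.03 and 13.37. The kainate receptor genes Grik1 and Grik2 and the NMDA subunit gene Grin3a fell, Grik2 by 0.75 ± 0.20 SE and Grin3a 2.54-fold.

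Synaptic genes divided too. Postsynaptic genes rose in 8 and fell in 4 of 21 (38.1% and 19%), synaptic vesicle genes rose in 5 and fell in 5 of 22 (22.7% each). Of all genes 11.5% rose and 12.3% fell. Camk2b and Camk2a, the subunits of 1 calmodulin kinase, went opposite ways: Camk2b rose 2.14-fold, from 9.03–10.16 (median 9.63) to 10.50, 11.16, 10.47, 10.63 and 10.94 (adjusted p = 0.00398), and Camk2a fell 1.66-fold, from 6.10–7.15 (median 6.73) to 6.06, 6.10, 5.95, 5.91 and 5.64 (adjusted p = 0.00316). Of 24 pairs of related genes listed, 16 had both members measured, and this was the 1 pair with opposite calls. Among the 8 risers of the postsynaptic list were Camk4, a nuclear calmodulin kinase gene, 3.44-fold, from 5.46–7.66 (median 7.13) to 8.55, 8.76, 8.90, 8.38 and 8.52, and the scaffold gene Dlg2, 2.93-fold. Among the fallers were Cntnap2, a neurexin-like adhesion gene, 3.09-fold, from 11.93–12.62 (median 12.14) to 10.19, 10.35, 11.03, 10.19 and 10.94, and Homer2, 2.77-fold. Slc17a7, the vesicular glutamate transporter VGLUT1, fell 2.19-fold, while Slc17a6, VGLUT2, did not pass (-0.24 ± 0.12). Of the chloride transporters that set the action of GABA, Slc12a2 rose by 0.30 ± 0.09 SE but did not pass with the mean of all probes (change 0.22), and Slc12a5 did not pass (-0.16 ± 0.09).

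Guidance and adhesion genes changed in both directions. Of 32 axon guidance genes 7 rose and 9 fell (21.9% and 28.1%, against 11.5% and 12.3% of all genes). The Slit receptor genes Robo1 and Robo2 rose 1.64-fold and 2.36-fold, Robo2 from 9.39–9.52 (median 9.44) to 10.77, 10.55, 10.76, 10.90 and 10.44, and the netrin receptor gene Dcc fell 3.08-fold (adjusted p = 0.00148), from 7.59–8.72 (median 8.29) to 6.92, 7.50, 7.20, 5.89 and 5.43. The other Dcc probe changed by 0.14 ± 0.39 SE, and the gene did not pass with the mean of all probes (change -0.74). The further probes did not all show the rise of the Robo genes: those of Robo1 changed by 0.04 ± 0.13 SE and 0.94 ± 0.14 SE, and those of Robo2 by 1.06 ± 0.25 SE, -0.02 ± 0.14 SE, 0.85 ± 0.20 SE, 1.13 ± 0.37 SE, 1.02 ± 0.33 SE and 0.12 ± 0.18 SE. Among the semaphorins Sema3a rose 2.04-fold and Sema6a fell 2.46-fold. Of 20 cadherin and protocadherin genes 8 rose and 2 fell (40% and 10%). Cdh12, above background on 1 of 6 E13 arrays, rose 3.04-fold, from 4.79–5.79 (median 5.20) to 6.36, 6.26, 7.09, 7.14 and 7.43, and Pcdh8 at least 2.32-fold, while Pcdh19 fell (-0.90 ± 0.19). Area patterning genes fell in 7 of 20 and rose in 4, with the caudal and medial factors Dmrta1, Dmrt3 and Nr2f2 lower by 3.5-fold, 3.23-fold and 2.66-fold (Dmrta1 above background on 1 of 5 E16 arrays).

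Neuropeptide genes fell in 6 of 13 and rose in 2, and held the 2 genes (0.0188% of those tested) whose stage change differed from that between the E16 and E13 arrays labelled cKO, which came in a table of their own. Tac2, the neurokinin B gene, was above background on 0 of 6 E13 arrays and on all 5 E16 embryo arrays, 6.00, 6.26, 5.94, 7.13 and 5.76, at least 1.5-fold higher, with a change of 1.66 ± 0.18 SE in embryo and 0.25 ± 0.18 SE in cKO. Nts, the neurotensin gene, was above background on no E16 embryo array and fell at least 1.38-fold, and it changed by -1.28 ± 0.16 SE in embryo and 0.07 ± 0.16 SE in cKO. The differences were 1.42 and -1.34, both at an adjusted p of 0.0307. They depended on the processing: 0 genes passed in several other settings, among them the fit without the postnatal arrays. At an unadjusted limma p under 0.05 there were 380 of the 10663 genes tested, less than the share of 0.05 that chance alone would give. Cck, cholecystokinin, fell 3.08-fold, from 7.55–9.32 (median 8.35) to 6.96, 6.32, 6.42, 6.84 and 6.88, Adcyap1, the gene of the peptide PACAP, fell 2.66-fold, and the receptor gene Npy1r rose at least 1.65-fold.

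Of 20 measured genes of BMP, TGF-beta and activin signalling 6 rose and 2 fell (30% and 10%, against 11.5% and 12.3% of all genes). Besides Inhba, the risers were the receptor gene Acvr1 (0.65 ± 0.12 SE), the inhibitor of transcription Id2, a target of BMP (0.77 ± 0.20), the secreted BMP antagonist genes Chrd (0.54 ± 0.16) and Grem1 (at least 1.24-fold) and the inhibitory Smad gene Smad6 (0.46 ± 0.14). Grem1 did not pass without E16 array 1 (change 0.66), and Smad6 did not pass without E13 array 3 or E16 array 5 (changes of 0.40 to 0.42). Id2 lay at 10.31–11.35 (median 10.76) and at 11.46, 11.57, 11.42, 11.68 and 11.81. The activin antagonist gene Fst fell 2.19-fold, from 7.28–8.28 (median 7.94) to 6.48, 6.57, 6.88, 6.71 and 6.79 (adjusted p = 0.0239), and the activin receptor gene Acvr2a fell by 0.54 ± 0.19 SE. Fst did not pass without E13 array 1 or E16 array 1 (changes of -1.08 to -1.04), and Acvr2a did not pass without E13 array 2, 4, 5 or 6 or E16 array 1, 4 or 5, with no filter on dim probes or with the background pattern as a covariate (changes of -0.54 to -0.39).

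RNA-binding and splicing genes fell in 8 and rose in 2 of 28 (28.6% and 7.14%, against 12.3% and 11.5% of all genes). The neuronal splicing factor gene Rbfox1 rose 2.8-fold, from 10.59–11.50 (median 11.26) to 12.49, 12.56, 12.61, 12.77 and 12.68 (adjusted p = 2.84e-08). Rbfox2, the other riser, rose by 0.59 ± 0.13 SE in the probe used, while its other probe changed by -0.57 ± 0.12 SE, so its direction is not settled. Nova2 fell 1.61-fold and Celf4 1.49-fold. Of 9 genes of DNA methylation 4 fell and 0 rose: Gadd45a, of DNA repair and demethylation, 2.32-fold, from 9.29–10.21 (median 9.72) to 8.95, 8.36, 8.82, 8.36 and 8.39, and the methyl-binding gene Mbd2 by 0.73 ± 0.11 SE. Dnmt1, the maintenance methyltransferase gene, did not pass (-0.03 ± 0.10).

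In the cytoskeleton list 5 of 25 fell and 3 rose (20% and 12%, against 12.3% and 11.5% of all genes). Ina, the alpha-internexin gene, fell 2.36-fold, from 11.20–11.88 (median 11.59) to 10.07, 10.41, 10.36, 10.19 and 10.68 (adjusted p = 3.90e-05). Mapt, which encodes tau, rose by 0.61 ± 0.13 SE, from 12.02–12.71 (median 12.51) to 12.89, 13.09, 13.20, 13.07 and 13.15, in 1 of its 3 probes. The other 2 changed by -0.06 ± 0.18 SE and 0.10 ± 0.27 SE, and the gene did not pass with the mean of all probes (change 0.22). In the authors' series matrix Mapt changed by -0.12 and did not pass (adjusted p = 0.72).

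Genes of energy use and lipids made small changes. In glycolysis 3 of 18 rose and 3 fell (16.7% each, against 11.5% and 12.3% of all genes). Eno2, neuron-specific enolase, rose 1.68-fold and Ldhb 1.61-fold, while Pgk1 and Pgam1 fell 1.59-fold and 1.39-fold. The other Pgk1 probe changed by -0.14 ± 0.24 SE. The glucose transporter gene Slc2a3 rose by 0.50 ± 0.10 SE. In cholesterol synthesis 6 of 17 fell and 1 rose, none by more than Ebp with -0.49 ± 0.08. Genes of skeletal muscle and skin, which the cortex should lack, were measured in 4 cases, and Mylpf and Tnnt1 fell 2.01-fold and 2-fold. Mylpf lay at 6.13–6.70 (median 6.38) and at 5.33, 5.36, 5.69, 5.54 and 4.98, and Tnnt1 at 5.78–6.20 (median 5.95) and at 4.63, 4.86, 5.66, 4.96 and 4.70, each with 1 of 5 E16 arrays above background.

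Few genes of the ribosome and of respiration passed. Of 17 cytosolic ribosomal protein genes 1 rose and 0 fell, with a median change of 0.05. Of 14 nucleolus and ribosome assembly genes none passed (by limma; their changes ran from -0.24 for Myc to 0.32 for Nop58), and of 22 respiratory chain genes 1 fell. Among 24 genes of the BAF chromatin complex 3 rose and 3 fell (12.5% each, close to the 11.5% and 12.3% of all genes), all by under 1.5-fold. The subunit gene Actl6a fell by 0.52 ± 0.12 SE, while its other probe changed by 0.15 ± 0.12 SE, and it did not pass with the mean of all probes (change -0.18). Actl6b, the counterpart in neurons, did not pass (0.08 ± 0.10). Hypoxia genes rose in 4 of 8 and fell in 0: Ndrg1 2.16-fold and Vegfa 1.67-fold, from 9.26–9.71 (median 9.60) to 10.76, 10.55, 10.16, 9.94 and 9.98. Of 10 immediate early genes 2 rose and 1 fell (20% and 10%, against 11.5% and 12.3% of all genes).

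Arrays of 1 stage were not alike in every gene. Among the 1316 lower genes E13 array 1 was the highest of its stage in 35.8%, and among the 1226 higher genes it was the lowest in 31.5%. E13 array 6 was the one nearest to E16 in 27.6% and 29.9%. On the first principal component array 1 lay farthest from E16, at -31.6, and array 6 nearest, at -14.9. On the second component, 10.7% of the variance, the E16 arrays spread most, from -18.8 and -14.5 for arrays 1 and 2 to 22.3 and 15.7 for arrays 4 and 5.

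In the probe used, the genes with the largest spread within a stage took values at separate levels. Fgfr1op2 read 9.32, 10.29, 9.17, 6.98, 7.13 and 7.49 on the E13 arrays and 7.15, 9.40, 9.13, 8.95 and 6.97 on the E16 arrays, near 7 or near 9 to 10 in both. Psmd8, a proteasome subunit gene, was near 8 on E13 arrays 1 and 6 and E16 array 3 and near 10 to 11 on the other 8 arrays. Ccl27a, a chemokine gene, was low on E13 arrays 2 and 6 and E16 array 4 (11.92, 11.36, 11.66, 8.92 and 11.53). Abhd16a was at 5.97 on E13 array 6 and between 9.83 and 11.12 on all others. Syne2, a nuclear envelope gene, was near 9 on every E13 array and on E16 arrays 1 and 2, and between 6.23 and 6.85 on E16 arrays 3, 4 and 5. None of these 5 genes passed between the stages in the probe used (limma adjusted p from 0.115 to 0.98). Further probes had smaller SEs. That of Fgfr1op2 changed by -0.48 ± 0.12 SE, against -0.08 ± 0.68 SE for the probe used. Those of Syne2 changed by -1.09 ± 0.41 SE, 0.09 ± 0.18 SE and 0.14 ± 0.21 SE, against -1.29 ± 0.59 SE. That of Ccl27a changed by 0.88 ± 0.37 SE, against 0.80 ± 0.47 SE.

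**Figure D5:**
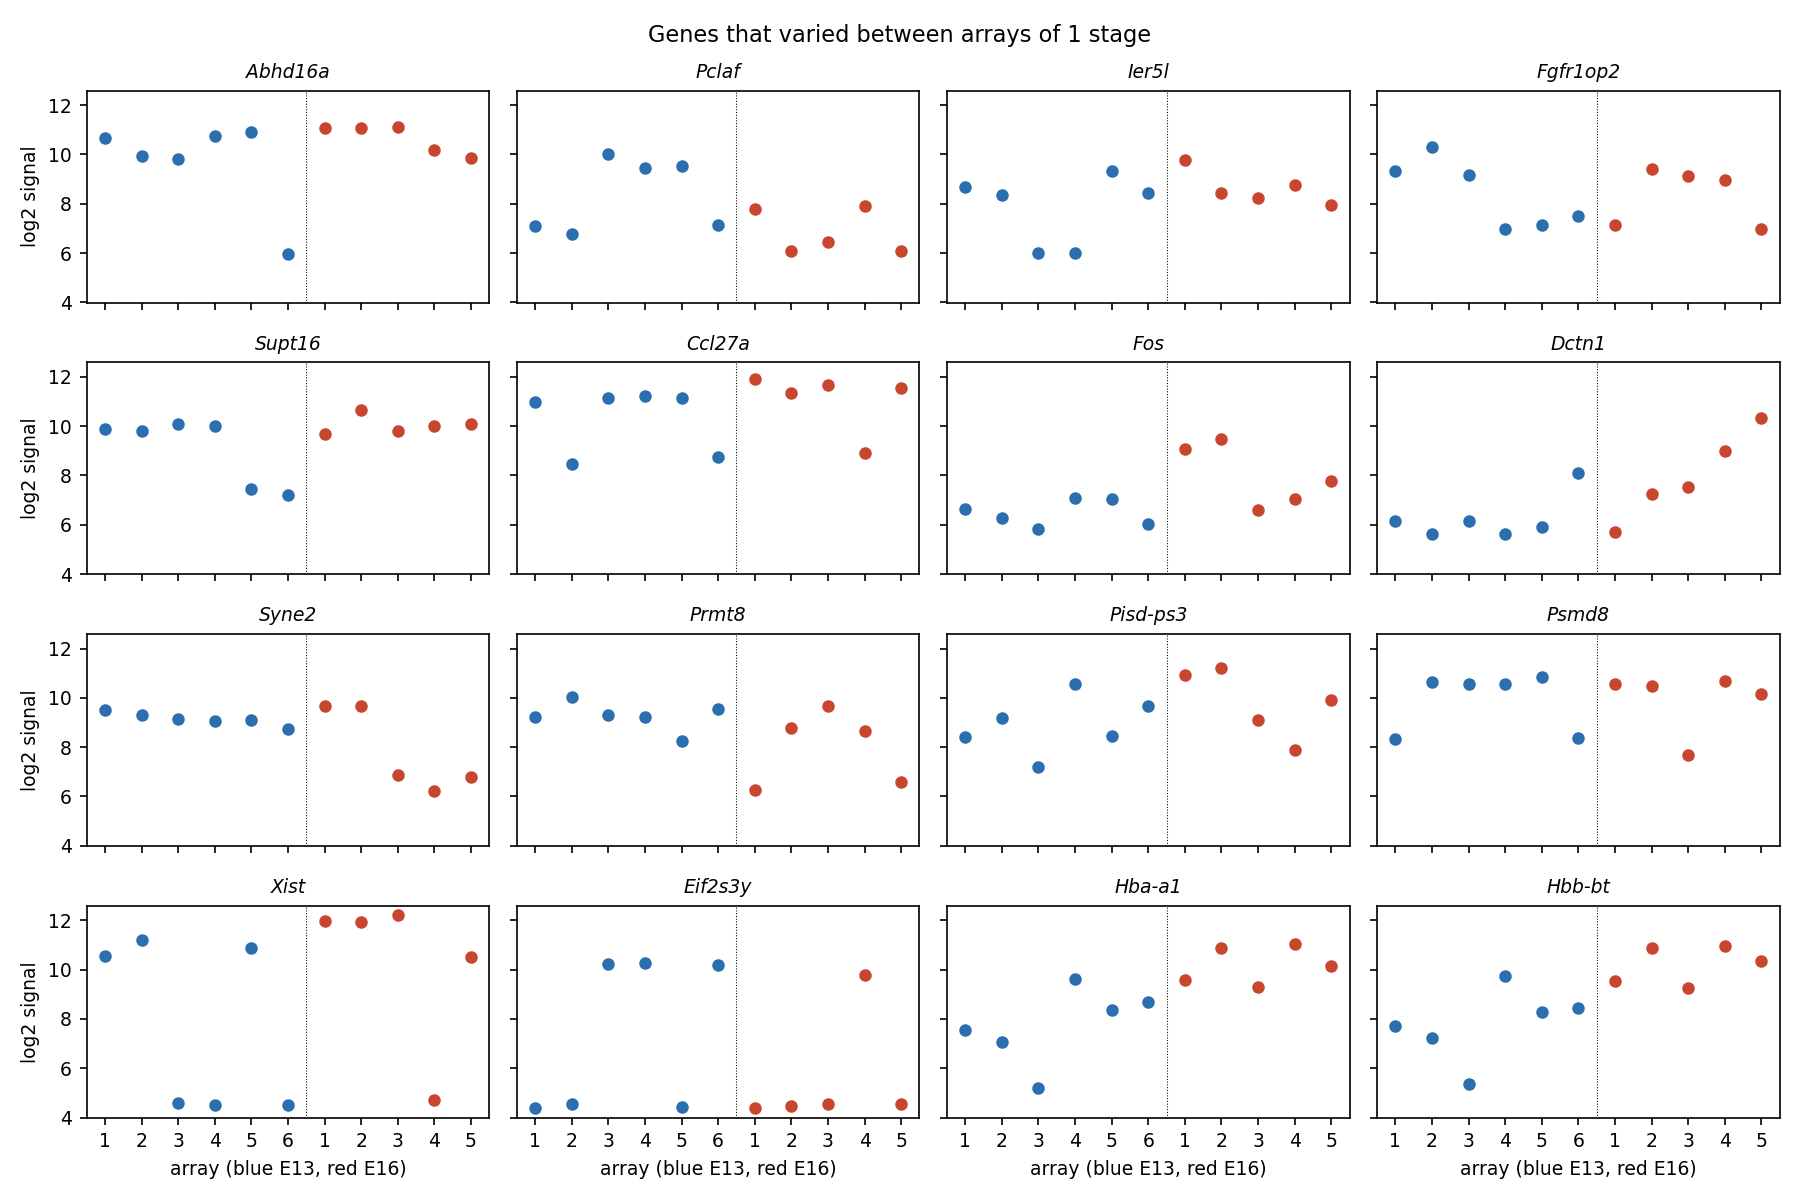
Normalised log2 signal (vertical axis) of 16 genes on each array (horizontal axis, blue E13 and red E16): the 6 genes with the largest SD within E13, the 6 within E16, and Xist, Eif2s3y and 2 globin genes. Values of the probes used for Fgfr1op2, Psmd8 and Syne2 fall at separate levels, and Xist and Eif2s3y exclude each other.

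The immediate early gene Fos read 9.08, 9.48, 6.60, 7.03 and 7.77 on the E16 arrays, highest on arrays 1 and 2, against 5.83–7.09 (median 6.44) at E13 (adjusted p = 0.0452), and did not pass without E13 array 1, 2, 3 or 6 or E16 array 1, 2 or 5, with common median scaling, without the P2 arrays, with no filter on dim probes, with an intensity trend, with the background pattern as a covariate or with the Xist class as a covariate (changes of 1.14 to 1.57).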

How the data were processed

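Total RNA was hybridised as biotin-labelled cRNA to Illumina mouse BeadChips, per the labels' protocols. Per the file headers, the authors deposited an average signal (intensity) and a detection p-value for each of 45281 probes. The signals are not normalised, but a background had been subtracted, since they reach below 0. The series matrix deposited beside them holds the authors' log2 values, which served as an alternative only.

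All 27 arrays were corrected with limma 3.58.1 in R 4.3.3 (normexp, negative controls inferred from the detection p, offset 16) and quantile normalised. Probes with a detection p under 0.01 on at least 5 arrays were kept (20498), and the brightest probe of a gene stood for it, which left 10663 genes. A model with 1 mean per group was fitted with lmFit and eBayes, and p-values were adjusted by Benjamini-Hochberg over all genes. Array numbers follow the column order and are names only. The arrays' number limits the precision.

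The gene lists and members were chosen with earlier results of these data known, and 6 lists, the families and the multiciliated and chromosome 12 lists, were added here after values were seen. The rule named the 15 largest changes in each direction, up to 6 passing members of each list, the most variable genes and members that did not pass; other genes in the text were chosen after their values were seen. The fit was tested on simulated data for the E16 against E13 embryo comparison over all 10663 genes. It found 26, 44, 49 and 50 of 50 genes changed by 0.5, 1, 2 and 4 on the log2 scale. There were 10 false calls among 179. The simulated errors were normal and independent between genes and arrays. Differences that many genes of an array share were not simulated, so this count does not give the rate of false calls in the real data. Alternatives changed the background correction, scaling, arrays in the fit, filter, probe rule, moderation and each replicate.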

Additional observations from a re-analysis of the deposited data

Results flagged for a closer look

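The stage change of 2 neuropeptide genes differed from that in the arrays labelled cKO by the interaction term of the fit: Tac2 by 1.42, more positive in embryo, and Nts by -1.34.

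Among 359 sets of array values examined, 1 gene in 1 stage each, 17 (4.74%) held an array far from the others of its stage, and chance flags about 1 in 20. E13 array 1 held 4 of them: Cntnap2 was high at 12.62, and Gria2, Ptprz1 and Sh3rf3 were low at 11.14, 8.37 and 6.24. The others of that stage were Ndn at 13.59 on array 2, Birc5 at 10.71 on array 3 and Abhd16a at 5.97 on array 6. E16 array 4 held Eno2 at 9.79, above the others, and Lhx9 at 5.97, Btg1 at 12.38 and Ccl27a at 8.92, below them. On E16 array 3 Mcm10 was high at 8.38, and Psmd8 and Slc1a3 were low at 7.70 and 9.97. On E16 array 5 Sox2 and Tekt1 were low at 6.68 and 6.15, and on E16 array 1 Cux2 was high at 11.15.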

How the results depend on the processing

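Within the 7 embryo arrays of 1 background pattern 764 genes were higher and 932 lower, and 1525 of the 2542 calls passed there with fewer arrays. All 2542 calls kept their direction there. These 7 arrays are among those that made the calls, so a kept direction was likely beforehand and is no independent check. The fit within them was chosen after seeing the data, as were the pattern and the Xist and Y-linked class as covariates. In the other settings the counts stayed within 1.5 times those reported. They ran from 933 higher and 918 lower with the authors' series matrix (7520 genes) to 1693 higher and 1823 lower with array weights, and over the fits that leave out 1 array from 1026 to 1193 higher and from 1112 to 1311 lower. Scaling to a common median gave 1098 higher and 1405 lower. The number of genes whose stage change differed from that in cKO was 0 without normexp, with the series matrix, without the P2 arrays and with no filter on dim probes, 1 with common median scaling and with the filter on every array of a group, 10 with array weights, and 0 to 3 without 1 array; the cause was not tested. Of 233 genes named in the text 175 passed, and 140 of these did so with the same sign in each of the 25 settings that held them. Not every setting held every gene, and the series matrix held 1763 of the 2542 calls. Mapt alone among the 175 changed sign, at -0.118 in the series matrix, and the cause was not tested. No paired analysis was possible because the signal columns carry no replicate number from the labels, and a slide block was not run because no file header names a slide. The size of a change is uncertain for a gene above background on no array of a stage, as in Tac2 and Nts.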
